A study of Drosophila melanogaster with 4 samples.

Results

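Isolated ORC2 regions are short stretches of chromosome bound by ORC2 that stand alone, with at least 20 kb free of any other shared region on each side. They were chosen from the combined list of regions that the authors deposited for salivary glands of wandering Drosophila melanogaster larvae. A region counted as isolated where the gaps to the previous and the next region of its arm were both 20000 bp or more, its width was under 1000 bp, and it was not the first or last region of the arm. By this rule 376 of the 6503 regions on the 6 main chromosome arms (2L, 2R, 3L, 3R, 4 and X) were isolated, which is 5.78%, out of 6587 regions in the whole list. Positions and widths chose the members, so gaps and widths are given below as descriptions only. The scores of the same peak calls are also set beside those of other regions without a test.

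The study applied chromatin immunoprecipitation and sequencing with a polyclonal rabbit antibody against ORC2 to these glands. The 2 libraries with a peak list, replicates 1 and 2, come from the first and the second chromatin extraction and are both labelled as SuUR mutant, a strain of the Orr-Weaver laboratory for which the labels list outcross 3 and the tags transposon and GFP. The labels also hold entries for wild type Oregon-R (1 of ChIP DNA, 1 of input DNA), each labelled channel 2 beside one of the mutant libraries. These were not analysed here, so genotypes were not compared. Whether the extractions were made from different animals is not recorded, so the spread between the replicates may be technical. Depth is unknown, since no read counts are part of the lists.

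ORC2 is a subunit of the origin recognition complex, which binds DNA and loads the replicative helicase at sites where DNA replication can start. Cells of the larval salivary gland copy their genome repeatedly without dividing, which builds the giant polytene chromosomes. Some parts of those chromosomes are copied less often than the rest, and the product of SuUR, Suppressor of Underreplication, is required for this shortfall. Where bound sites are sparse, a replication fork that started at a lone site would have a long stretch ahead of it. The position of lone sites is therefore of interest for how such stretches are copied. Whether replication starts at these regions was not measured here.

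The isolated regions scored higher than the other regions of the arms in both libraries. The authors' score, a number from the peak caller with no stated unit or scale, had a median of 2.62 in replicate 2 at the isolated regions (quartiles 2.14 and 3.66, n = 376), against 2.32 at the other regions (1.92 and 2.84, n = 6127). In replicate 1 the median was 2.00 at the isolated regions (1.67 and 2.54), against 1.75 at the others (1.52 and 2.08). The combined score, which the authors gave for each region of the joint list, had a median of 2.32 at isolated regions and 2.04 at the others. At isolated regions made of 1 peak from each library it matched the mean of the 2 library scores, so it is not a further independent measure. The difference in median combined score was 0.28, with a spread of 0.035 (SD) between the differences of the 2 libraries. The distributions overlapped widely, and the lowest isolated region had a combined score of 1.26.

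**Figure D1:**
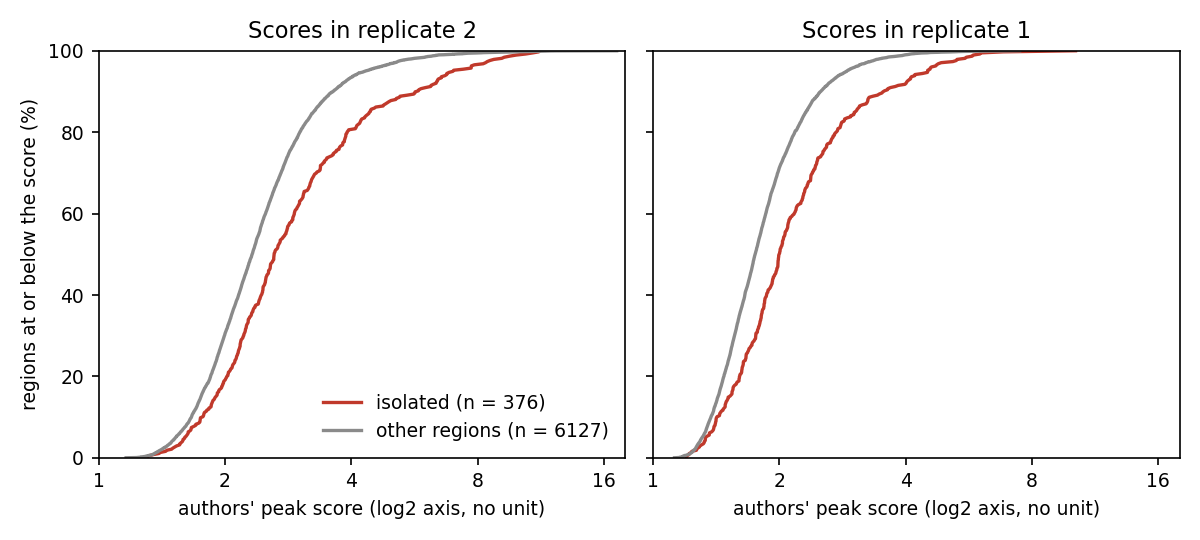
Cumulative share of regions (y axis, percent) at or below a given authors' score (x axis, log2 scale, no unit) in replicate 2 (left) and replicate 1 (right), for isolated regions in red and all other regions of the arms in grey. The red curve runs to the right of the grey one in both libraries, with medians of 2.62 against 2.32 in replicate 2 and 2.00 against 1.75 in replicate 1.

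The difference was widest among high scores. The top 10% of all arm regions by combined score, from 3.08 upwards, held 94 of the 376 isolated regions (25%, 95% exact binomial interval 20.7 to 29.7), against 557 of 6127 other regions (9.09%, 8.38 to 9.84). A score in the top 10% of both libraries at once was found at 69 isolated regions (18.4%, 14.6 to 22.6), against 321 other regions (5.24%, 4.69 to 5.83) and 6% of all. In the bottom 10% by combined score lay 20 isolated regions (5.32%, 3.28 to 8.10), against 631 of the others (10.3%, 9.55 to 11.1). By library this was less marked, with 7.45% of isolated regions (5.01 to 10.6) against 10.2% of the others (9.44 to 10.97) in replicate 2, where the intervals overlapped, and 6.12% (3.92 to 9.04) against 10.2% (9.50 to 11.04) in replicate 1. These intervals cover counting error only and treat regions as independent.

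Isolated regions also scored higher within each class of width. Among regions from 200 to under 300 bp the median combined score was 2.71 for 101 isolated and 2.07 for 971 other regions. For widths from 300 to under 400 bp, where the classes lay closest, it was 2.19 for 63 isolated regions and 2.06 for 982 others. In all 6 classes under 1000 bp the isolated median was higher in both libraries, by 0.086 to 0.70 in replicate 2 and by 0.11 to 0.43 in replicate 1. Median widths were 323 bp for isolated regions and 402 bp for other regions under 1000 bp, whose median combined score was 2.04.

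The rule was also applied to each list alone, and partners were scored in the other library. Such scores exist only where that library called an overlapping peak, and most of these regions are among the 376 already compared, so the values below are not independent of those above. The rule applied to the replicate 1 list alone gave 360 isolated peaks, of which 317 (88.1%, 84.2 to 91.2) overlapped a peak of replicate 2, against 6615 of 7657 other peaks (86.4%, 85.6 to 87.2). The median replicate 2 score of those partners was 2.63 for isolated peaks (quartiles 2.11 and 3.74) and 2.33 for other peaks (1.93 and 2.84). The rule applied to the replicate 2 list alone gave 333 isolated peaks. Of these, 197 (59.2%, 53.7 to 64.5) had a partner in replicate 1, against 6413 of 9890 other peaks (64.8%, 63.9 to 65.8). Their partners had a median replicate 1 score of 2.11 (1.78 and 2.80) against 1.75 (1.52 and 2.08) for the partners of other peaks. Of the isolated peaks, 196 of the 333 in replicate 2 and 314 of the 360 in replicate 1 were part of an isolated region of the combined list. The share with a partner was thus slightly higher for isolated than for other peaks of replicate 1 and lower for those of replicate 2. The intervals overlapped in both lists, in replicate 2 only narrowly, and such overlap does not show that shares are equal. The partner's score was higher for isolated peaks in both directions. The sources used here do not say whether both libraries were called against the same control.

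Score went with remoteness beyond the threshold of the rule, mostly from a gap of 10 kb upwards. Among regions under 1000 bp whose smaller gap was under 1 kb, the median score was 2.29 in replicate 2 and 1.72 in replicate 1 (n = 1777). With a smaller gap of 5 to 10 kb it was 2.28 in replicate 2 and 1.76 in replicate 1 (n = 912), and with 10 to 20 kb it was 2.50 in replicate 2 and 1.91 in replicate 1 (n = 531). In the isolated classes the medians, replicate 2 before replicate 1, were 2.57 and 1.98 for 20 to 30 kb (n = 186), 2.67 and 1.99 for 30 to 50 kb (n = 109), 2.68 and 2.12 for 50 to 100 kb (n = 68), and 3.24 and 2.43 for 100 kb or more. The last class holds only 13 regions, and the replicate peaks overlapped by at least 50% of each at only 46.2% of them. No step was seen at 20 kb itself: 26 regions just inside, with a smaller gap from 20000 to under 21000 bp, had a median combined score of 2.34, and 25 just outside, from 19000 to under 20000 bp, one of 2.33.

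**Figure D2:**
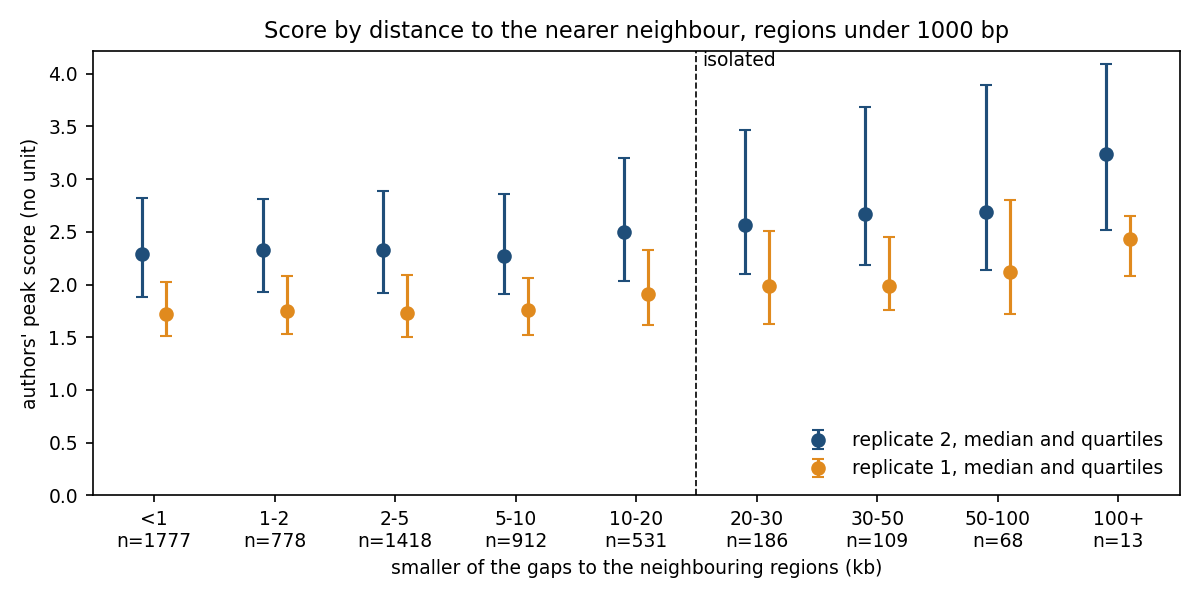
Median and quartiles of the authors' score (y axis, no unit) by the smaller of a region's gaps to its neighbours (x axis, kb, with the number of regions), for regions under 1000 bp, with replicate 2 in blue and replicate 1 in orange. Medians up to 10 kb lie between 2.28 and 2.33 in replicate 2 and between 1.72 and 1.76 in replicate 1 and are higher beyond, at 3.24 in replicate 2 and 2.43 in replicate 1 among the 13 regions with at least 100 kb on both sides. The dashed line marks the 20 kb limit of the rule.

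Among regions under 1000 bp, long gaps on both sides went with higher scores than a long gap on 1 side. The median combined score was 2.32 for isolated regions, against 2.13 for 1804 regions under 1000 bp with exactly 1 gap of 20 kb or more and 2.00 for 3612 such regions with both gaps under 20 kb. Isolated regions that bordered a gap of at least 100 kb (n = 112, 29.8%) had a median of 2.62, against 2.27 for the 264 others. Regions at the border of such a gap with a neighbour within 20 kb on the opposite side had 2.17 (n = 280). Isolated regions supplied 125 of the 448 borders of gaps of 100 kb or more, or 27.9% (23.8 to 32.3). A region at such a border already meets 1 of the 2 gap limits, so the rule itself raises this share above the 5.78% of all arm regions. Long gaps were a condition of membership, so the 29.8% is also a description only. The 31 regions that met both gap limits but were 1000 bp or wider did not score higher than regions outside the isolated set. Their median combined score was 2.01, against 2.04 for all other regions of the arms. By library it was 2.25 against 2.32 in replicate 2 and 1.73 against 1.75 in replicate 1. The widest isolated region, ORC1197 on 2L at 992 bp, scored 2.62 in replicate 2 and 1.98 in replicate 1. The narrowest region beyond the width limit, ORC121 on 2L at 1004 bp, scored 1.71 in replicate 2 and 1.75 in replicate 1.

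The strongest isolated regions were compact and lay on 2L, 3L, 3R and X. All positions are in FlyBase release 5.1. Of these 10, 4 were on 2L, 2 on 3L, 3 on 3R and 1 on X, and 9 were narrower than the median isolated region. Of all 376 isolated regions, 77 were on 2L, 65 on 2R, 61 on 3L, 105 on 3R and 60 on X. High scores at narrow regions were not particular to isolated ones. Other regions had a median combined score of 2.12 under 200 bp and of 2.03 from 700 to under 1000 bp. ORC1173 at 2L 21397236 to 21397556 led with 8.74 in replicate 2 and 10.2 in replicate 1. It stood 51962 bp from the region before it and 175783 bp from the next. The lists do not mark unmappable sequence, which cannot be told apart from unbound sequence in this or the other long gaps. ORC1173 was the only one of the 10 that scored lower in replicate 2.

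On 3L, ORC3257 at 14506416 to 14506681 had scores of 10.4 (replicate 2) and 6.01 (replicate 1), with gaps of 85648 and 23831 bp. Farther along, ORC3533 at 3L 18453455 to 18453878 had 11.2 in replicate 2 and 4.86 in replicate 1, with gaps of 61604 and 157342 bp. Both thus scored higher in replicate 2, and the same held on 3R. There, ORC4304 at 8549590 to 8549832 had scores of 9.88 (replicate 2) and 4.78 (replicate 1), and 133202 bp followed it without a shared region. ORC4104 at 3R 5040087 to 5040221, only 135 bp wide, scored 9.53 in replicate 2 and 4.74 in replicate 1. ORC4206 at 3R 6500899 to 6501193 had scores of 8.36 (replicate 2) and 5.76 (replicate 1), so it differed least between the libraries among the 3 on this arm.

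The other members of the leading 10 included 3 more on 2L. ORC815 at 2L 13332860 to 13333068 had scores of 10.8 (replicate 2) and 4.04 (replicate 1). ORC343 at 2L 5624119 to 5624344 had scores of 9.25 (replicate 2) and 5.18 (replicate 1), between gaps of 76588 and 99602 bp. ORC1024 at 2L 18776682 to 18776826 had scores of 11.2 (replicate 2) and 3.06 (replicate 1), the largest ratio of all isolated regions (3.68), and its replicate 1 peak was only 5 bp long. The leader on X was ORC5526 at 2313674 to 2313817, with 9.13 in replicate 2 and 4.57 in replicate 1. The highest on 2R was ORC1392 at 4284125 to 4284570, ranked 26 among isolated regions, and it was nearly equal in the libraries with 5.78 in replicate 2 and 5.28 in replicate 1. Genes at these positions were not examined, because the only gene table used covers release 6.

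The weakest members were close to the floor of the lists. ORC4443 at 3R 11197424 to 11198384 had scores of 1.31 (replicate 2) and 1.20 (replicate 1), the lowest combined score at 1.26, and at 961 bp it was the third widest. ORC230 on 2L, ORC4985 on 3R, ORC1236 on 2R and ORC404 on 2L followed, with combined scores from 1.31 to 1.47. Combined scores of isolated regions thus ran from 1.26 to 9.45, against 1.21 to 11.2 for the other regions. The 3 narrowest, ORC846 and ORC338 on 2L and ORC1792 on 2R (77 to 81 bp), scored between 1.79 and 2.11 in replicate 2 and between 1.80 and 1.98 in replicate 1.

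The most remote region was ORC3805 at 3L 24021313 to 24022012, near the centromeric end of the arm, with 312580 bp before it and 508174 bp after it. It scored 2.51 in replicate 2 and 1.41 in replicate 1 and ranked 284 by combined score. The next, ORC3964 at 3R 1996489 to 1996747, lay between gaps of 162087 and 172947 bp and reached 5.67 in replicate 2 and 4.39 in replicate 1. Its replicate 1 peak spanned only 3 bp.

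Of the 10 most remote regions 6 were on 2L, which held 77 of all 376 isolated regions, and 7 of the 10 had a combined score above the isolated median. ORC277 at 2L 4661011 to 4661246 was the strongest of them, with 8.25 in replicate 2 and 4.21 in replicate 1, and its gaps were 183773 and 148875 bp. Its replicate 1 peak covered only 32 bp. ORC887 at 2L 15498839 to 15499320 had scores of 4.34 (replicate 2) and 3.23 (replicate 1). ORC986 at 2L 17962947 to 17963740, with a gap of 461169 bp before it, scored 3.49 in replicate 2 and 2.56 in replicate 1. Farther back on the arm, ORC967 at 2L 17260604 to 17260900 had scores of 2.91 (replicate 2) and 2.59 (replicate 1) after a gap of 350112 bp. The replicate 1 peak of ORC967 covered only 34 bp. ORC994 at 2L 18319899 to 18320353 had scores of 2.78 (replicate 2) and 2.43 (replicate 1), so this stretch of 2L held 3 of the 10.

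The remaining members of the most remote 10 were of moderate or low score. ORC1951 on 2R, 986 bp wide, scored 3.24 in replicate 2 and 2.08 in replicate 1. ORC4450 on 3R scored 2.24 in replicate 2 and 1.88 in replicate 1. ORC1187 at 2L 22024417 to 22024717 had scores of 1.32 (replicate 2) and 2.00 (replicate 1), one of the few that were weaker in replicate 2.

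Scores were higher in replicate 2 at 330 of the 376 isolated regions (87.8%, 84.0 to 90.9), where 90.9% of all arm regions were. The median ratio of replicate 2 to replicate 1 was 1.34 for isolated regions (quartiles 1.15 and 1.56) and 1.31 for the others (1.15 and 1.51). A ratio of at least 2 was found at 26 isolated regions (6.91%, 4.57 to 9.97), against 4.06% of all regions. After ORC1024, the largest ratios were those of ORC1110 on 2L (6.01 in replicate 2, 2.17 in replicate 1), ORC5351 on 4 (4.87 in replicate 2, 1.76 in replicate 1), ORC6369 on X (4.92 in replicate 2, 1.84 in replicate 1) and ORC815. At the other extreme, ORC3989 at 3R 2391244 to 2391461 had scores of 2.69 (replicate 2) and 5.54 (replicate 1), a ratio of 0.486, followed by ORC1187 (0.659), ORC2433 on 2R (0.699), ORC5221 on 3R (0.723) and ORC4460 on 3R (0.773). Across the isolated regions the scores of the libraries had a Spearman's rho of 0.75 (n = 376), and across the others one of 0.67 (n = 6127). All points of each coefficient come from the same pair of libraries, whose depth is unknown, and regions are not replicates.

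**Figure D3:**
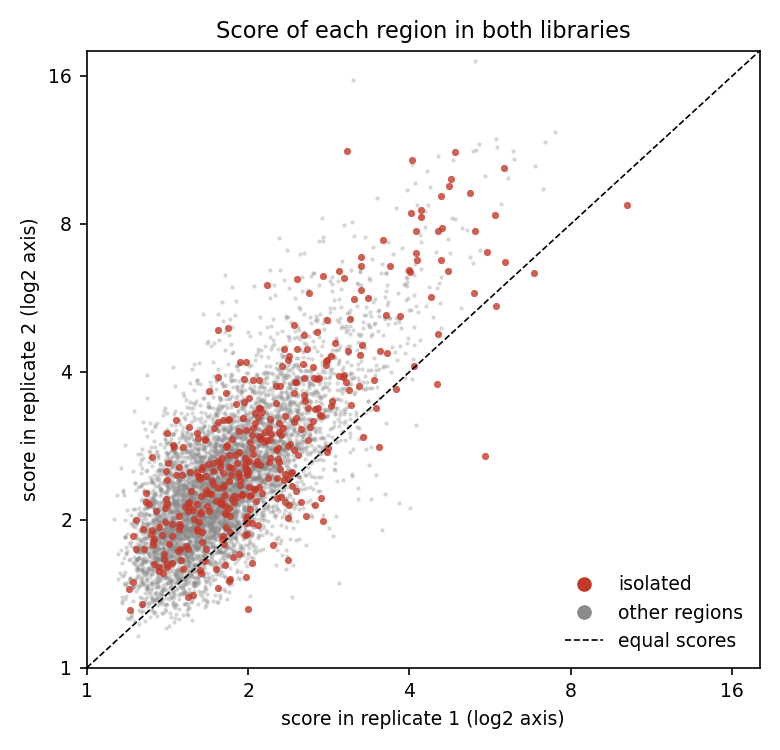
Score in replicate 2 (y axis) against score in replicate 1 (x axis), both on log2 scales without unit, for isolated regions in red and other regions of the arms in grey. Most points of both kinds lie above the dashed line of equal scores (330 of 376 isolated regions). The red point farthest to the right is ORC1173, with 8.74 in replicate 2 and 10.2 in replicate 1.

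Each region of the combined list holds overlapping peaks of both libraries, so their positions are close by construction, the more so under the width limit. Of the isolated regions 370 (98.4%, 96.6 to 99.4) were made of 1 peak from each library, against 96.5% of other regions under 1000 bp (96.0 to 97.0) and 92.6% of all arm regions. The midpoints of the replicate peaks were a median of 26.5 bp apart at isolated regions (quartiles 11.5 and 60 bp), against 37.5 bp at other regions under 1000 bp, and 262 isolated regions (69.7%, 64.8 to 74.3) had them within 50 bp, where 58% of all did. Narrower regions leave less room for an offset. From 200 to under 300 bp the median offset was 16 bp for isolated and 24 bp for other regions, whereas from 700 to under 1000 bp it was 87.8 bp for isolated and 71 bp for other regions, so the order was not the same at all widths. The peaks overlapped by at least 50% of each at 278 isolated regions (73.9%, 69.2 to 78.3), against 69.1% of all regions.

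A small set of members rested on a very short peak in 1 library. In 23 isolated regions (6.12%, 3.92 to 9.04) the peak of a library covered fewer bases than the 36 nt read length, against 4.14% of all regions. This was the case in replicate 2 for 2 of them and in replicate 1 for 21. The 21 include ORC277, ORC338, ORC967, ORC1024, ORC1110, ORC1792, ORC2433 and ORC3964, all named above. Across the 23 the combined scores ran from 1.48 to 7.15 with a median of 2.31, close to that of all isolated regions. Leaving such regions out on both sides gave a difference in median combined score of 0.29 between isolated and other regions.

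Isolation in the combined list did not mean that no signal was called nearby, because that list leaves out peaks found in a single library. Such peaks lay within 20 kb of 196 isolated regions (52.1%, 46.9 to 57.3), where 84.9% of all arm regions had one. The peaks came from replicate 2 alone at 135 regions, from replicate 1 alone at 17 and from both at 44. The remaining 180 regions (47.9%) had no peak of any kind within 20 kb in either library. The 180 had a median combined score of 2.45, against 2.24 for the 196, and the same order held in replicate 2 (2.82 against 2.56) and in replicate 1 (2.09 against 1.93). The largest number of single-library peaks around 1 isolated region was 8.

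Single-library peaks were densest next to the isolated regions. In replicate 2 there were 112 per Mb in the first 500 bp beyond the edges (42 peaks, 95% exact Poisson interval 80.5 to 151), 61.2 per Mb from 500 to 1000 bp (38.8 to 91.8) and 15.7 per Mb from 10 to 20 kb (13.0 to 18.8). In replicate 1 the same distances had 31.9 per Mb (12 peaks, 16.5 to 55.7), 10.6 per Mb (2.90 to 27.2) and 2.79 per Mb (1.73 to 4.27). From 1 to 2 kb the rates were 49.2 in replicate 2 and 13.3 in replicate 1. Both libraries thus had their highest rate nearest to the region and their lowest in the outer 10 kb, although peaks of 1 library were never closer than 200 bp to each other. A gap shorter than 40 kb between isolated regions was counted from both ends.

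On the gap-facing side of regions under 1000 bp with exactly 1 long gap, rates also fell with distance. There, replicate 2 had 135 single-library peaks per Mb in the first 500 bp (112 to 161) and 18.1 per Mb from 10 to 20 kb (16.2 to 20.1), and replicate 1 had 46.6 (33.6 to 62.9) and 3.44 (2.63 to 4.41), with intervals that overlapped those of isolated regions. Over the whole 20 kb the rates around isolated regions were 23.0 per Mb in replicate 2 (20.6 to 25.6) and 4.92 per Mb in replicate 1 (3.86 to 6.18). The gap-facing side had higher rates, 26.9 per Mb in replicate 2 (25.3 to 28.7) and 6.96 per Mb in replicate 1 (6.12 to 7.87). These intervals overlapped those of isolated regions only narrowly. All sequence of the arms outside combined regions had 31.0 per Mb in replicate 2 (29.95 to 32.0) and 9.30 per Mb in replicate 1 (8.75 to 9.87). A single-library peak within 500 bp was present at 47 isolated regions (12.5%, 9.33 to 16.3), against 17.6% of all regions.

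**Figure D4:**
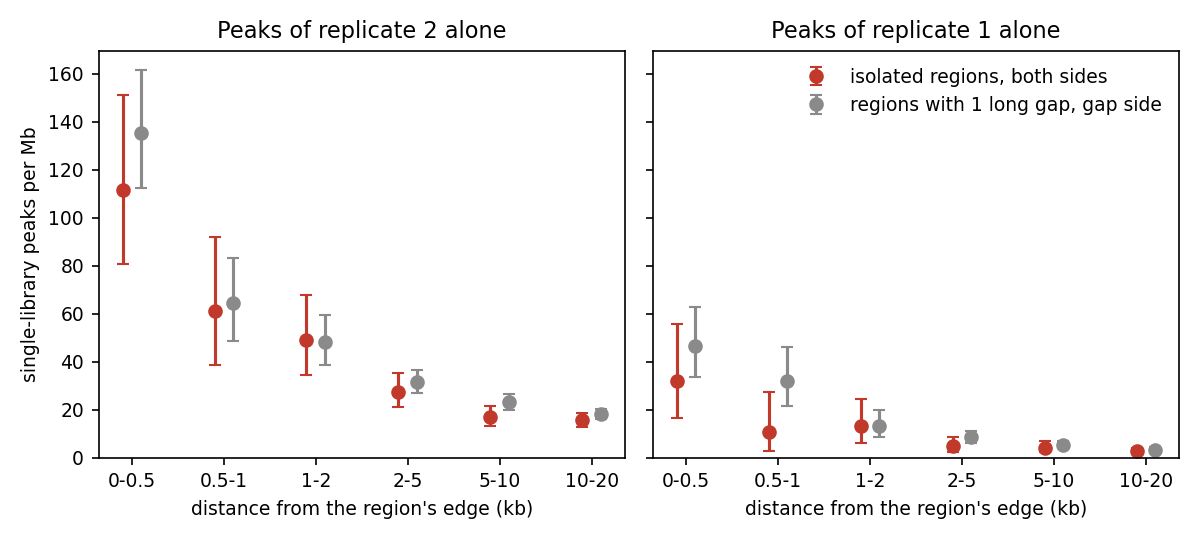
Single-library peaks per Mb (y axis) by distance from the edge of a region (x axis, kb), for peaks of replicate 2 alone (left) and replicate 1 alone (right), around isolated regions in red and on the gap side of regions with 1 gap of 20 kb or more in grey. Bars are 95% exact Poisson intervals. Rates around isolated regions are highest in the first 0.5 kb (112 per Mb in replicate 2 and 31.9 in replicate 1) and lowest from 10 to 20 kb (15.7 and 2.79).

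As on the arms in general, peaks shared by both libraries were longer than single-library ones. In replicate 2 the peaks of the isolated regions covered a median of 298 bp and had a median score of 2.62, against 86.5 bp and 2.34 for the 340 flank peaks. In replicate 1 the isolated regions had 230 bp and 2.00, against 52.5 bp and 1.61 for the 74 flank peaks. Single-library peaks elsewhere on the arms had median widths of 84 bp in replicate 2 and 66 bp in replicate 1, and the peaks of other combined regions covered medians of 389 bp in replicate 2 and 318 bp in replicate 1. Isolated regions with a flank peak of a library were outscored by one in most cases in replicate 2 and in a minority in replicate 1. In replicate 2 the region scored at or above each single-library peak within 20 kb in 74 of 179 cases (41.3%), and in replicate 1 in 42 of 61 (68.9%). No such share is given for other regions. The shares of the 2 libraries cannot be compared directly, because replicate 2 had more flank peaks (340 against 74).

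Isolated regions were found on each arm. On the large arms they made up 7.12% of regions on 3R (105 regions, 5.86 to 8.55), 6.41% on 2L (77, 5.09 to 7.94), 5.29% on 2R (65, 4.11 to 6.69), 5.02% on X (60, 3.85 to 6.42) and 4.51% on 3L (61, 3.47 to 5.75). The intervals of 3R and 3L did not overlap, and those of neighbours in this order did. With the rule applied to the replicate 2 list alone the order was different, with 2L highest (4.05%) and 2R lowest (2.59%). There, 3R (3.20%) was close to X (3.26%) and 3L (3.08%). In the replicate 1 list alone 3R was again highest (5.37%) and 3L lowest (3.74%). The lead of 3R therefore rested on replicate 1 and the combined list. The small chromosome 4 had 8 isolated among 49 regions (16.3%, 7.32 to 29.7), above the large arms in each list, on few regions.

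**Figure D5:**
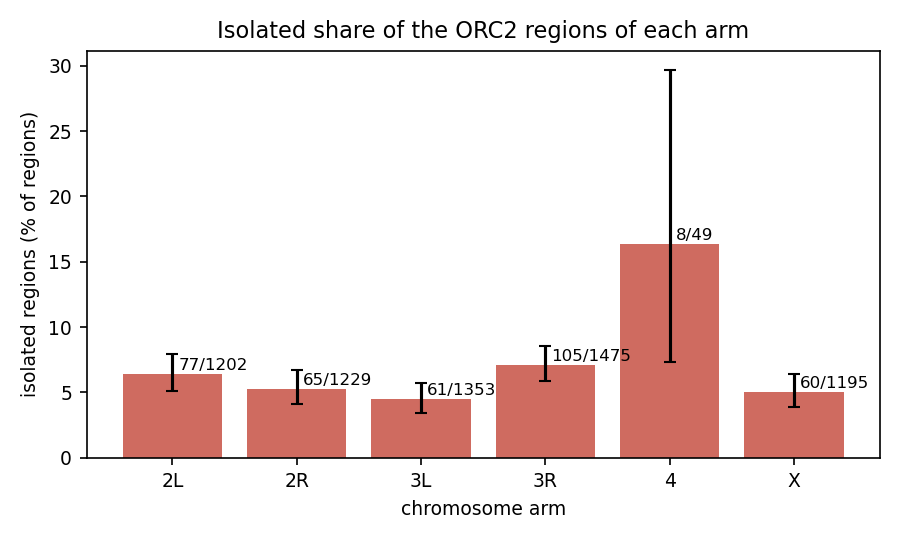
Isolated regions as a percentage of all combined ORC2 regions of each chromosome arm (bars, y axis from 0), with 95% exact binomial intervals and the counts beside the bars. Shares on the large arms lie between 4.51% (3L) and 7.12% (3R), and chromosome 4 has 16.3% with a wide interval, from 8 of 49 regions.

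In each library the higher score of isolated regions was seen on each large arm. In replicate 2 the isolated and other medians were 2.79 and 2.30 on 2L, 2.56 and 2.31 on 2R, 2.47 and 2.33 on 3L, 2.45 and 2.18 on 3R, and 3.01 and 2.51 on X. In replicate 1 they were 2.11 and 1.76 on 2L, 1.92 and 1.74 on 2R, 2.01 and 1.76 on 3L, 1.98 and 1.69 on 3R, and 2.15 and 1.81 on X. By combined score the arm 3L had nearly no difference, with medians of 2.055 for isolated and 2.054 for other regions. On chromosome 4 the libraries disagreed, with isolated and other medians of 3.29 and 2.91 in replicate 2 and of 2.01 and 2.05 in replicate 1.

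By number of members, the longest unbroken run of isolated regions was 1 of 5 on chromosome 4, although runs of 4 on other arms spanned more sequence. Neighbouring members ORC5338 to ORC5342 spanned 4 808021 to 979137 (171117 bp), with combined scores from 2.20 to 3.34. Its highest isolated region was ORC5347 at 4 1105357 to 1105601, with 4.21 in replicate 2 and 2.79 in replicate 1. Each of the 8 scored higher in replicate 2, from 2.49 to 4.87, than in replicate 1, from 1.75 to 2.79. On all arms together 183 isolated regions stood singly among neighbours that were not isolated, 114 formed 57 pairs, and 54 formed 18 runs of 3. There were 5 runs of 4. Of these, the run ORC1207 to ORC1210 at 2R 75141 to 404237 spanned 329097 bp at the centromeric end of its arm, and ORC4511 to ORC4514 at 3R 12528711 to 12774596 spanned 245886 bp, with combined scores from 2.20 to 4.65.

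Most isolated regions were asymmetric in their spacing only to a moderate degree. The smaller gap had a median of 30172 bp and the larger one of 63310 bp. The larger was at least 2 times the smaller at 166 regions (44.1%, 39.1 to 49.3) and at least 5 times at 30 (7.98%, 5.45 to 11.2). Gaps of 100 kb or more on both sides were found at 13 regions.

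In the 2 Mb next to the centromere of the 5 large arms, 30 of 326 regions were isolated (9.20%, 6.30 to 12.9), against 338 of 6128 elsewhere on these arms (5.52%, 4.96 to 6.12). The share there was 21.7% on 2R (10 of 46), 14.8% on 2L (8 of 54), 11.1% on X (6 of 54) and 10.7% on 3L (3 of 28), and 2.08% on 3R (3 of 144). Unmappable sequence also has no regions, and the lists do not show where it lies, so it cannot be told apart from unbound sequence. The 30 isolated regions had median scores of 2.65 in replicate 2 and 1.84 in replicate 1, against 2.20 in replicate 2 and 1.64 in replicate 1 for 296 other regions in the same stretches.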

How the data were processed

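ORC2 ChIP-seq peak lists of 2 SuUR mutant libraries and a combined list for the series were used. The authors called the peaks with PeakSeq, per the file headers and source column, on FlyBase release 5.1. The deposited score of each peak has no stated scale, and the starts and ends are other deposited values, in bp. Aligner, caller version, thresholds and control: not given in the sources used here. Reads were 36 nt, with fragments of 150 to 200 bp, per the labels' protocols and design text. Depth is unknown.

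Members and comparisons were chosen with earlier results of these data known. A region's score per library was the mean over its peaks in that library. Single-library peaks touched no combined region. Arm lengths ran from position 1 to the last peak. Intervals are exact binomial or exact Poisson (95%) and cover counting error only. With 2 libraries of 1 group no test between samples was made. No genome sequence was used. The rule and the merging were tested on simulated lists. Named regions were the 10 highest and 5 lowest by combined score, the 10 with the largest smaller gap, the 5 largest and 5 smallest replicate ratios, the narrowest and widest 3, the highest of each arm and the borders of the thresholds. The long runs and the proximal stretches were chosen after their values were seen. Python 3.11.15, pandas 2.3.3, numpy 2.4.6 and scipy 1.17.1 were used.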

Additional observations from a re-analysis of the deposited data

Results flagged for a closer look

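The same rule was applied to the heterochromatic scaffolds and U, which are not part of the comparisons on the arms. It was met by 23 regions among 84, of which 15 were on U, 6 on 2RHet and 2 on 3LHet. They were looked at because they lie outside the main measurement, and no peak list of a control sample was analysed here. The highest combined score among them was 16.6 (ORC5381 at U 8148351 to 8148525), above the 9.45 of the highest isolated region on the arms, and the lowest was 1.63. Scaffold ends were treated like arm ends. The lists do not show how sequence is ordered on U, so gaps there may not be distances along a chromosome.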

How the results depend on the processing

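The number of isolated regions (376) was 907 with gaps of 10000 bp, 81 with gaps of 50000 bp and 614 when regions under the median score were removed first, as fewer neighbours then remain. It stayed within 1.5 times under the other planned settings (293 to 462), 333 and 360 when replicate 1 or replicate 2 was left out. The difference in median combined score of 0.28 kept its direction in all settings (0.25 and 0.30 with 1 library each). It was 0.41 for isolated regions with no single-library peak within 20 kb and 0.24 for regions whose peaks overlapped reciprocally by 50%, both settings chosen after seeing the data. The share with no single-library peak within 20 kb (47.9%) was 52.4% and 83.8% with 1 library each, as fewer peaks are then counted. The ratio of the highest to the lowest share of isolated regions among large arms (1.58) was 1.43 and 1.56 with 1 library each. The 1.56, from the replicate 2 list, compares 2L with 2R, whereas 1.58 and 1.43 compare 3R with 3L. The cause was not tested except where stated. No paired analysis was possible because both libraries belong to 1 group. Without read counts, no correction for depth could be made.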

Other observations

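When single-library peaks counted as regions too, 329 merged stretches met the rule. Of these, 180 were isolated regions of the combined list and 149 were called in 1 library alone, 128 in replicate 2 and 21 in replicate 1. Whether an isolated peak of a single list had a partner in the other library went with its width, as it did for other peaks. Isolated peaks of the replicate 2 list had a partner in 1 of 40 cases under 36 bp (2.5%, 0.063 to 13.2), against 5.43% of 1031 other peaks, and in 58 of 59 cases from 400 to under 1000 bp (98.3%, 90.9 to 100), against 94.0% of 2681. Isolated peaks of the replicate 1 list had a partner in 18 of 33 cases under 36 bp (54.5%, 36.4 to 71.9), against 41.9% of 601 other peaks (37.95 to 46.0), and in 65 of 65 from 400 to under 1000 bp (100%, 94.5 to 100), against 98.6% of 2046.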
